A study of Mus musculus with 18 samples.

Results

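The genes described here are 8 markers of tubular injury and repair, chosen by symbol: Lcn2, Havcr1, Spp1, Clu, Sox4, Sox9, Cd24a and Prom1. All 8 were found among the 36528 genes counted by RNASeq in primary murine renal proximal tubulo-interstitial epithelial cells (RPTEC), and all 8 were among the 15521 genes with enough reads to be tested. The cells came from C57BL/6 mice through a commercial supplier. They received vehicle (DMSO), the cytokine TWEAK at 100 ng/mL, or TWEAK at 100 ng/mL together with 3 µM NIK SMI1, a small molecule inhibitor of NF-κB inducing kinase (NIK), for 6 h or 24 h. Each of these 6 groups held 3 samples, 18 in all, and no group received NIK SMI1 alone. The sources used here do not say whether the 3 samples came from separate cultures, so the p-values measure the spread between these samples, which may be technical. There is no untreated 0 h group, and cells in a dish hold none of the immune, vascular and stromal neighbours of a kidney.

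When tubular epithelium is damaged, surviving cells lose parts of their transport program and switch on secreted proteins, surface molecules and transcription factors that serve as markers of injury and of repair. Lcn2 (lipocalin 2, NGAL) binds iron-carrying siderophores and appears in urine after injury, and Havcr1 (KIM-1) is a surface receptor with which injured proximal tubule cells take up dead cells. Spp1 (osteopontin) is a secreted integrin and CD44 ligand, Clu (clusterin) a secreted chaperone, and Sox4 and Sox9 are transcription factors of developing and regenerating epithelium. Cd24a and Prom1 (CD133) are surface proteins carried by scattered, progenitor-like tubular cells. TWEAK signals through its receptor Fn14 to the canonical and the non-canonical NF-κB pathway, and NIK is the kinase of the non-canonical branch.

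Between 18040966 and 51956444 reads were counted per sample (median 35374254), and levels are given as counts per 1000000 of these reads (CPM). At these depths 3 reads amount to 0.0577 to 0.166 CPM, below every level reported for the 8 genes. Replicates differed by more than counting noise in every group, so no library appeared to have been deposited more than once within a group. Libraries of different groups were not compared in this way. A check of the cell type gave mixed marks: the epithelial list was abundant (8 genes, summed level 9323 to 12040 CPM), whereas of 22 genes of the mature proximal tubule 10 were tested and Slc22a8, Miox and Kap had 0 reads in all 18 samples. Lrp2 (megalin) had a mean of 0.103 to 0.414 CPM in the 6 groups while the summed level of that list, 171 to 235 CPM, came mostly from 1 gene. Of the transporters that define a mature proximal tubule, Slc34a1 and Slc22a6 were also at or near 0, whereas Slc5a2 (SGLT2) had 6.51 ± 0.591 CPM with vehicle at 6 h. Of 10 leukocyte genes, Ptprc (CD45) had mean levels of 0.0668 to 0.15 CPM in the 6 groups and S100a8 of 0.0172 to 0.124 CPM, and the list summed to 18.6 to 26.1 CPM, mostly Cd68. The summed levels of the other lists were 279 to 446 CPM for podocytes, nearly all Podxl, 0.355 to 2.44 CPM for distal tubule and collecting duct, 16.2 to 23.7 CPM for fibroblasts and smooth muscle, 19.0 to 46.0 CPM for endothelium, mostly Flt1, and 3.96 to 11.9 CPM for pancreatic acinar and duct cells. Genes of pancreatic islets set libraries apart: their summed level was 19.6 to 40.6 CPM in 13 samples, 6.02 CPM and 0.321 CPM in the other 2 TWEAK samples at 24 h, and 0.158 to 0.290 CPM in the 3 samples with TWEAK and NIK SMI1 at 24 h. The 24 h results are therefore also given below with single TWEAK samples, one with and one almost without these reads. Reads of both Xist and the Y chromosome were present in all samples, whatever the group.

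Set against each other per gene length, the 8 genes differed widely. The deposited RPKM values, reads scaled by exonic length and library size, put Clu first with vehicle at 6 h at 1677 ± 40.3 RPKM (SD, n = 3). It was followed by Lcn2 (406.5 ± 16.6 RPKM), Spp1 (362 ± 4.70), Cd24a (242 ± 4.67), Sox4 (131 ± 4.85), Prom1 (94.8 ± 1.30), Sox9 (66.3 ± 2.49) and Havcr1 (1.72 ± 0.201 RPKM). No neighbours in this order overlapped between samples. At 24 h with vehicle the order was Clu, Spp1, Cd24a, Lcn2, Prom1, Sox4, Sox9 and Havcr1, again with no overlap of neighbours, and Lcn2 had moved from the second to the fourth place (161 ± 6.40 RPKM). With TWEAK at 24 h, Clu stood at 1030.0 ± 10.4 RPKM and Cd24a at 221 ± 3.62 RPKM. In that group Sox4 (157 ± 6.72 RPKM) and Spp1 (157 ± 2.45) could not be ordered, nor could Lcn2 (76.3 ± 3.91) and Prom1 (75.0 ± 0.821), because their samples overlapped. With TWEAK and NIK SMI1 at 24 h Spp1 (182 ± 13.9 RPKM) again stood above Sox4 (133 ± 3.19), and Prom1 (107 ± 7.30) above Lcn2 (69.3 ± 12.0). Havcr1 was last in all 6 groups, at 1.27 to 1.72 RPKM.

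**Figure D1:**
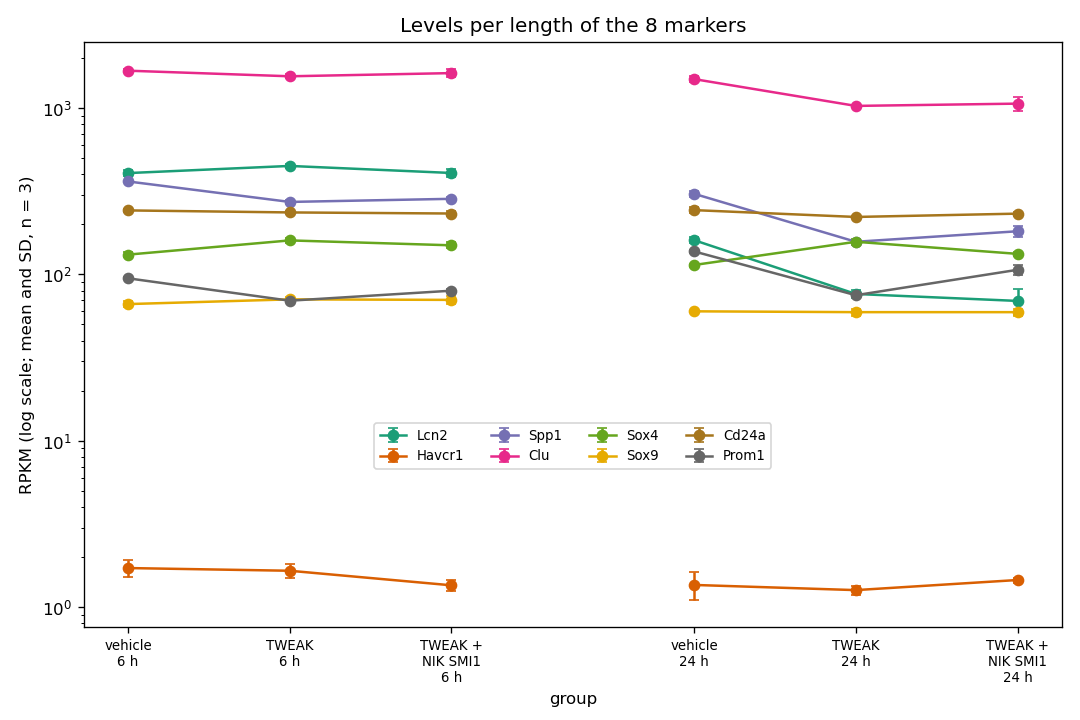
Levels per gene length of the 8 markers in RPKM on a log axis, as the mean and SD of 3 samples in each of the 6 groups, with lines joining the groups of 1 time point. Clu lies at the top (1030.0 to 1677 RPKM) and Havcr1 at the bottom (1.27 to 1.72 RPKM). With vehicle, Lcn2 lies above Spp1 and Cd24a at 6 h and below both at 24 h.

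TWEAK changed the markers in both directions, and more of them at 24 h than at 6 h. By edgeR's quasi-likelihood test with Benjamini-Hochberg adjustment over all tested genes, and calling an adjusted p below 0.05, 1 marker rose (Sox4) and 2 fell (Spp1 and Prom1) at 6 h. Across all tested genes 11.7% were called higher and 12% lower in this comparison. At 24 h 1 marker rose (Sox4) and 5 fell (Lcn2, Spp1, Clu, Prom1 and Cd24a), where 18.3% of all genes were called higher and 20.7% lower. Havcr1 and Sox9 were not called at either time. Samples of the groups did not overlap for 2 markers that were higher (Lcn2 and Sox4) and 3 that were lower (Spp1, Clu and Prom1) at 6 h, beside 15.8% and 20.2% of all genes, and for 1 higher (Sox4) and 5 lower at 24 h, beside 24% and 25.6%. Medians over the 8 log2 fold changes were -0.03 at 6 h and -0.33 at 24 h, while those over all tested genes were -0.0034 and -0.0055. The reads of the 8 genes together summed to 6347 ± 90.3 CPM with vehicle at 6 h and 5924 ± 64.7 CPM with TWEAK, and to 5818 ± 185 CPM and 4202 ± 32.3 CPM at 24 h, of which Clu was the larger part. General epithelial genes changed with TWEAK in both directions at 6 h and were mostly lower at 24 h. Of 8 tested, 3 were higher and 4 lower with TWEAK at 6 h, and 1 was higher and 6 lower at 24 h (median log2 fold change -0.22). With NIK SMI1 against TWEAK 4 were higher and 1 lower at 6 h, and 5 higher and 2 lower at 24 h (median 0.19). Over all genes 5.34% were called higher and 5.7% lower with NIK SMI1 at 6 h, and 10.2% and 8.29% at 24 h. Krt8 and Krt18 of this list are also counted among the other injury genes below. At 24 h the median summed level of the 8 epithelial genes was 9702 CPM in the vehicle group, 9385 CPM in the TWEAK group and 9759 CPM where NIK SMI1 was added. In the podocyte list, of which 3 genes were tested, 2 were lower with TWEAK and 2 higher with NIK SMI1 at each time. Its summed level had medians of 404.7, 281 and 340.2 CPM in these groups at 24 h. The part of either list in the marker results was not tested. In these bulk samples, fewer cells that carry a transcript and less of it per cell cannot be told apart.

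**Figure D2:**
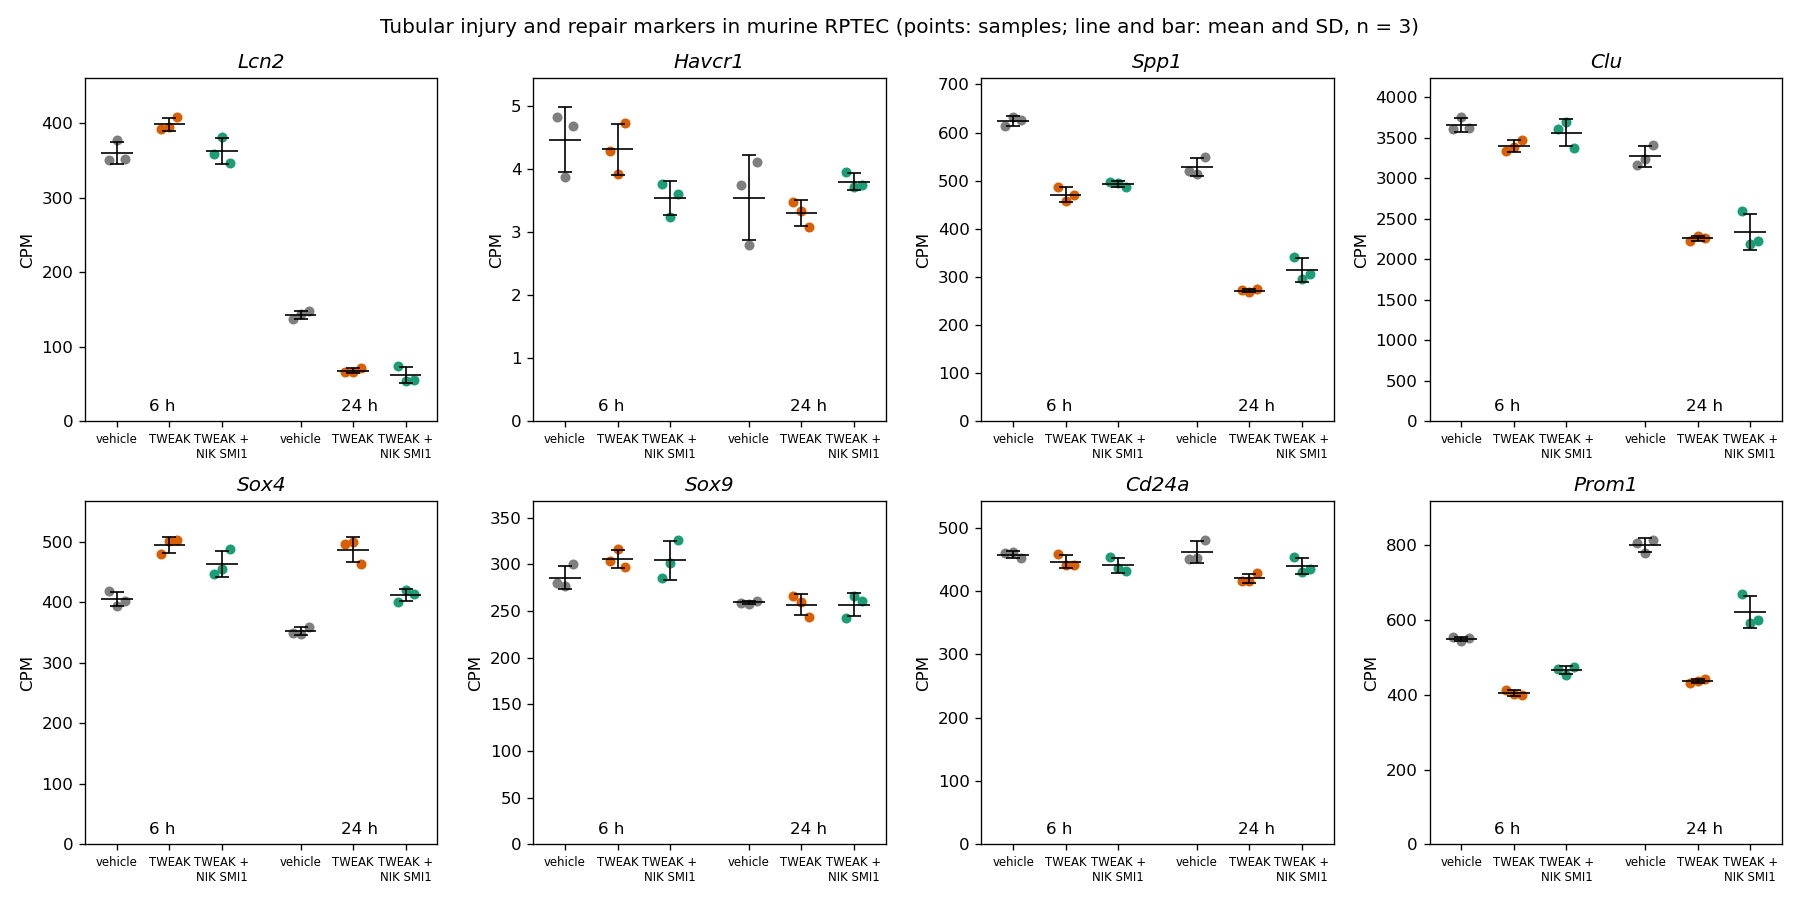
CPM of each marker in every sample (points), with the mean and SD of the 3 samples of a group (lines and bars), for vehicle, TWEAK and TWEAK with NIK SMI1 at 6 h and 24 h, each axis starting at 0. TWEAK samples lie below vehicle at 24 h for Lcn2, Spp1, Clu, Cd24a and Prom1 and above it for Sox4, and only Prom1, Spp1 and Sox4 have samples with NIK SMI1 that moved from TWEAK back toward vehicle past the test.

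Among the secreted proteins, Lcn2 (mouse GRCm38 chr2:32384633-32388252, minus strand) showed opposite signs at the 2 time points. Its 6 h samples held 351, 377 and 353 CPM with vehicle, 393, 394.5 and 409 CPM with TWEAK, and 359.5, 382 and 347 CPM with TWEAK and NIK SMI1. The TWEAK samples all lay above both other groups, but the differences were small. TWEAK against vehicle gave a log2 fold change of 0.16 (SE 0.06, adjusted p = 0.0677). At 24 h Lcn2 stood at 137, 144 and 148 CPM with vehicle, at 66.1, 65.7 and 71.9 CPM with TWEAK, and at 74.1, 54.8 and 56.2 CPM with TWEAK and NIK SMI1. Every vehicle sample was higher than every sample with TWEAK. The fall with TWEAK was 2.10-fold (log2 fold change -1.07, SE 0.07, adjusted p = 8.46e-13). The study used a 2-fold cut-off for genes induced by TWEAK, and it was applied here in both directions. Lcn2, which fell, was the only marker of the 8 to pass this cut-off, which 2.87% of genes passed downward and 2.34% upward. At 6 h 0 markers passed it, beside 0.541% and 1.75% of genes. NIK SMI1 did not return Lcn2 toward vehicle. With NIK SMI1 against TWEAK the log2 fold change was -0.14 at 24 h (95% interval -0.28 to 0.0088, adjusted p = 0.204), and against vehicle it was -1.21 (SE 0.07, adjusted p = 4.23e-13). Sample 1 with NIK SMI1 was the highest of its group, and without it Lcn2 fell below TWEAK alone by 0.29 on the log2 scale (adjusted p = 0.000195). At 6 h the TWEAK difference became a call when each time point was fitted alone or when sample 1 or sample 2 with NIK SMI1 at 24 h was left out, and over all samples left out in turn its adjusted p ran from 0.0041 to 0.2. The 6 h difference of NIK SMI1 against TWEAK was -0.14 (SE 0.06, adjusted p = 0.168).

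Spp1 (chr5:104435118-104441050, plus strand) was lower with TWEAK at both times. The 250 bases before its RefSeq start are shown because Spp1, together with Prom1, is one of the markers that fell with TWEAK and were higher with NIK SMI1 than with TWEAK alone. The sequence is RefSeq's, build GRCm38.p6, chr5:104434861-104435110 on the plus strand, outside any annotated exon.
Spp1: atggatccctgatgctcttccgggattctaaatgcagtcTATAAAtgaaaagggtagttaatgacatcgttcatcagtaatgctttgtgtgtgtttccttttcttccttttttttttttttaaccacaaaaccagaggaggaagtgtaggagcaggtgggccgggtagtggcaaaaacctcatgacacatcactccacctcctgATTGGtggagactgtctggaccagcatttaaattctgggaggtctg
Capitals mark 1 match to TATAAA, starting 211 bases before that start, and 1 to CCAAT on the opposite strand, starting 46 bases before it. Both strands were searched. TATAAA was found in 12.4% and CCAAT in 33.9% of all 32851 RefSeq promoter windows of this length. The NF-κB consensus, found in 7.25% of them, had no match in this window. Neither did TGANTCA, found in 6.75%, a pattern that is wider than the AP-1 motif. The 6 h samples of Spp1 held 613, 633 and 625 CPM with vehicle, 486, 457 and 471 CPM with TWEAK, and 497, 495.5 and 486 CPM with TWEAK and NIK SMI1. TWEAK samples were all below vehicle (log2 fold change -0.39, SE 0.04, adjusted p = 4.31e-09), and those with NIK SMI1 stayed near TWEAK (0.06, SE 0.04, adjusted p = 0.373). At 24 h Spp1 stood at 519.6, 515 and 549 CPM with vehicle, 273, 268 and 275 CPM with TWEAK, and 342, 295.5 and 307 CPM with TWEAK and NIK SMI1. The 3 groups did not overlap. Spp1 fell 1.94-fold with TWEAK (log2 fold change -0.96, SE 0.04, adjusted p = 4.41e-17) and was 1.15-fold higher with NIK SMI1 than with TWEAK alone (0.21, SE 0.04, adjusted p = 0.000243), while it remained below vehicle (-0.75, SE 0.04, adjusted p = 3.75e-14). An annotated gene, Gm42793, shares exonic bases with Spp1 on the same strand, so reads there cannot be assigned to one of the pair.

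Clu (chr14:65968483-65981547, plus strand), the most abundant of the 8, changed with TWEAK past the test at 24 h. Its samples held 3603, 3760.0 and 3619 CPM with vehicle at 6 h, 3333, 3388 and 3473 CPM with TWEAK, and 3609, 3693 and 3376 CPM with TWEAK and NIK SMI1. The TWEAK samples lay below vehicle without overlap, by a difference that was not called (log2 fold change -0.10, SE 0.04, adjusted p = 0.128). This 6 h difference became a call with no filter or when sample 1 with NIK SMI1 at 24 h was left out. Over all samples left out in turn its adjusted p ran from 0.0344 to 0.342. At 24 h the values were 3164, 3235 and 3413 CPM with vehicle, 2228, 2291 and 2260.0 CPM with TWEAK, and 2591, 2187 and 2221 CPM with TWEAK and NIK SMI1. Both TWEAK groups lay below vehicle and overlapped each other. Clu fell 1.45-fold with TWEAK (log2 fold change -0.53, SE 0.04, adjusted p = 1.27e-10), and NIK SMI1 against TWEAK gave 0.04 (95% interval -0.05 to 0.13, adjusted p = 0.61). As for Lcn2, sample 1 with NIK SMI1 was the highest of its group, and without it the value was -0.036.

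Havcr1 (chr11:46735080-46779578, plus strand), the KIM-1 receptor, was the only marker in the range of a few CPM. It held 4.83, 3.88 and 4.68 CPM with vehicle at 6 h, 4.28, 3.92 and 4.73 CPM with TWEAK, and 3.76, 3.23 and 3.60 CPM with TWEAK and NIK SMI1. At 24 h it held 3.74, 2.79 and 4.10 CPM with vehicle, 3.48, 3.34 and 3.08 CPM with TWEAK, and 3.95, 3.71 and 3.74 CPM with TWEAK and NIK SMI1. Vehicle and TWEAK samples overlapped at both times. TWEAK against vehicle gave a log2 fold change of -0.04 (95% interval -0.29 to 0.21, adjusted p = 0.861) at 6 h and -0.13 (-0.41 to 0.16, adjusted p = 0.518) at 24 h. NIK SMI1 against TWEAK gave -0.28 (-0.56 to -0.0047, adjusted p = 0.206) and 0.21 (-0.06 to 0.48, adjusted p = 0.318). Its intervals were the widest of the 8 markers, and changes within these bounds are not excluded. The smallest change that could be called at this depth was not computed.

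Of the transcription factors, Sox4 (chr13:28948919-28953713, minus strand) was the marker that rose with TWEAK. The bases before its start are shown as the counterpart to Spp1. They are RefSeq's, build GRCm38.p6, chr13:28953714-28953949, printed on the minus strand, and end where the annotated exon begins.
Sox4: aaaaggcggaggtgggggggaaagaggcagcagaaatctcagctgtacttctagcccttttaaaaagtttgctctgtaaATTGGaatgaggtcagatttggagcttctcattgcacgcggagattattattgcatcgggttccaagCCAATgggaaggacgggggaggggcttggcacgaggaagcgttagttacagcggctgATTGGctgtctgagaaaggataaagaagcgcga
Capitals mark 3 matches to CCAAT on either strand, starting 171, 104 and 47 bases before the RefSeq start, a motif present in 32.7% of the 32851 windows cut to these 236 bases. The NF-κB consensus (6.83% of windows), TGANTCA (6.50%) and TATAAA (11.9%) had no match here. Sox4 held 418, 395 and 403 CPM with vehicle at 6 h, 479.9, 501 and 504 CPM with TWEAK, and 447, 455 and 488 CPM with TWEAK and NIK SMI1. All TWEAK samples were above vehicle (log2 fold change 0.30, SE 0.04, adjusted p = 3.34e-07), and the samples with NIK SMI1 overlapped them (-0.10, SE 0.04, adjusted p = 0.0832). The difference with NIK SMI1 became a call with no filter. It was also called without vehicle sample 1, TWEAK sample 1 or sample 3 with NIK SMI1 at 6 h. Its adjusted p ran from 0.0239 to 0.281 over all samples left out in turn. At 24 h it held 349, 348 and 359 CPM with vehicle, 497, 500.2 and 463 CPM with TWEAK, and 401, 421 and 413 CPM with TWEAK and NIK SMI1. The 3 groups did not overlap, and those with NIK SMI1 lay between the others. Sox4 rose 1.38-fold with TWEAK (log2 fold change 0.47, SE 0.04, adjusted p = 6.90e-11), was 1.19-fold lower with NIK SMI1 than with TWEAK alone (-0.24, SE 0.04, adjusted p = 1.52e-05), and stayed above vehicle (0.22, SE 0.04, adjusted p = 6.81e-05). Gm26735, annotated on the opposite strand, shares exonic bases with Sox4, and the library kit did not mark strand, so its reads cannot be separated from those of Sox4.

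Sox9 (chr11:112782224-112787760, plus strand) moved little. It held 280.5, 277 and 300.1 CPM with vehicle at 6 h, 304, 317 and 297 CPM with TWEAK, and 285, 301 and 327 CPM with TWEAK and NIK SMI1. The 3 groups overlapped. TWEAK against vehicle gave a log2 fold change of 0.11 (SE 0.04, adjusted p = 0.0639), which passed 0.05 when vehicle sample 3 or sample 3 with NIK SMI1 at 6 h, or sample 1 with NIK SMI1 at 24 h, was left out (adjusted p from 0.0304 to 0.244 over all samples left out in turn). At 24 h it held 259, 258 and 261 CPM with vehicle, 266, 260.0 and 244 CPM with TWEAK, and 243, 266 and 261 CPM with TWEAK and NIK SMI1. The groups overlapped, and TWEAK against vehicle gave -0.02 (95% interval -0.11 to 0.07, adjusted p = 0.803). NIK SMI1 against TWEAK gave -0.0030 (-0.09 to 0.09, adjusted p = 0.979). The 24 h values of Sox4 and Sox9, 0.47 and -0.02, were not tested against each other.

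Of the surface proteins of progenitor-like cells, Prom1 (chr5:43993620-44102032, minus strand) changed most. It held 553, 543 and 552 CPM with vehicle at 6 h, 414, 401 and 398 CPM with TWEAK, and 468, 453 and 474 CPM with TWEAK and NIK SMI1. At 24 h it held 806, 779 and 814 CPM with vehicle, 432, 436 and 442 CPM with TWEAK, and 670.0, 593 and 600.0 CPM with TWEAK and NIK SMI1. At each time point the 3 groups were fully separated, with NIK SMI1 in the middle. TWEAK lowered Prom1 1.35-fold at 6 h (log2 fold change -0.43, SE 0.03, adjusted p = 1.33e-10) and 1.83-fold at 24 h (-0.87, SE 0.04, adjusted p = 3.47e-17). With NIK SMI1 it was 1.15-fold higher than with TWEAK alone at 6 h (0.20, SE 0.04, adjusted p = 0.000235) and 1.42-fold higher at 24 h (0.50, SE 0.03, adjusted p = 1.94e-11). It stayed below vehicle at 6 h (-0.23, SE 0.03, adjusted p = 2.12e-05) and at 24 h (-0.37, SE 0.03, adjusted p = 5.00e-09). RefSeq places a second start inside Prom1. The 250 bases before it (chr5:44094769-44095018, minus strand) are free of exons but not shown, since they lie within the gene. They held 1 match to TGANTCA, which read TGAATCA, 189 bases before that start, and none to the other motifs. Part of a Prom1 exon is overlapped by Gm16401 on the opposite strand, whose reads cannot be told apart from those of Prom1. Cd24a (chr10:43578284-43584265, plus strand) changed by far less. At 24 h it held 449.9, 452 and 481 CPM with vehicle, 415, 416 and 428 CPM with TWEAK, and 454, 431 and 435 CPM with TWEAK and NIK SMI1. TWEAK samples were the lowest and overlapped neither other group, a fall of 1.10-fold against vehicle (log2 fold change -0.14, SE 0.03, adjusted p = 0.00153). NIK SMI1 against TWEAK gave 0.06 (95% interval -0.0042 to 0.13, adjusted p = 0.206). At 6 h its samples ranged from 431 to 462 CPM over the 3 groups, and TWEAK against vehicle gave -0.02 (-0.09 to 0.04, adjusted p = 0.675).

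The effect of NIK SMI1 passed the test for 1 marker at 6 h and for 3 markers at 24 h, given here beside the shares over all genes. Against TWEAK alone at 6 h, 1 marker was higher (Prom1) and 0 were lower by the adjusted p of edgeR or of DESeq2 (3 at edgeR's unadjusted p under 0.05), where 5.34% of all genes were called higher and 5.7% lower. At 24 h 2 markers were higher (Prom1 and Spp1) and 1 was lower (Sox4), where 10.2% of all genes were called higher and 8.29% lower. Samples with and without NIK SMI1 did not overlap for 2 higher (Spp1 and Prom1) and 2 lower markers (Lcn2 and Havcr1) at 6 h, beside 14.5% and 12.1% of genes, and for 4 higher (Havcr1, Spp1, Cd24a and Prom1) and 1 lower (Sox4) at 24 h, beside 18.9% and 15%. The 1.5-fold cut-off the study used for inhibition was applied here in both directions. It was passed by 0 markers at either time, beside 0.296% of genes upward and 1.1% downward at 6 h and 1.51% and 1.75% at 24 h. Against vehicle, the groups with TWEAK and NIK SMI1 had 1 marker higher (Sox4) and 2 lower (Spp1 and Prom1) at 6 h, beside 7.24% and 6.7% of all genes, and 1 higher (Sox4) and 4 lower (Lcn2, Spp1, Clu and Prom1) at 24 h, beside 8.07% and 9.83%. Sample 1 with NIK SMI1 at 24 h was the highest of its group for 6 markers (Lcn2, Havcr1, Spp1, Clu, Cd24a and Prom1) and the lowest for Sox4 and Sox9. Without it the log2 fold change against TWEAK was 0.45 for Prom1, 0.15 for Spp1 and -0.22 for Sox4, all still called. The comparisons with TWEAK and with vehicle share samples, so they are not separate evidence.

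**Figure D3:**
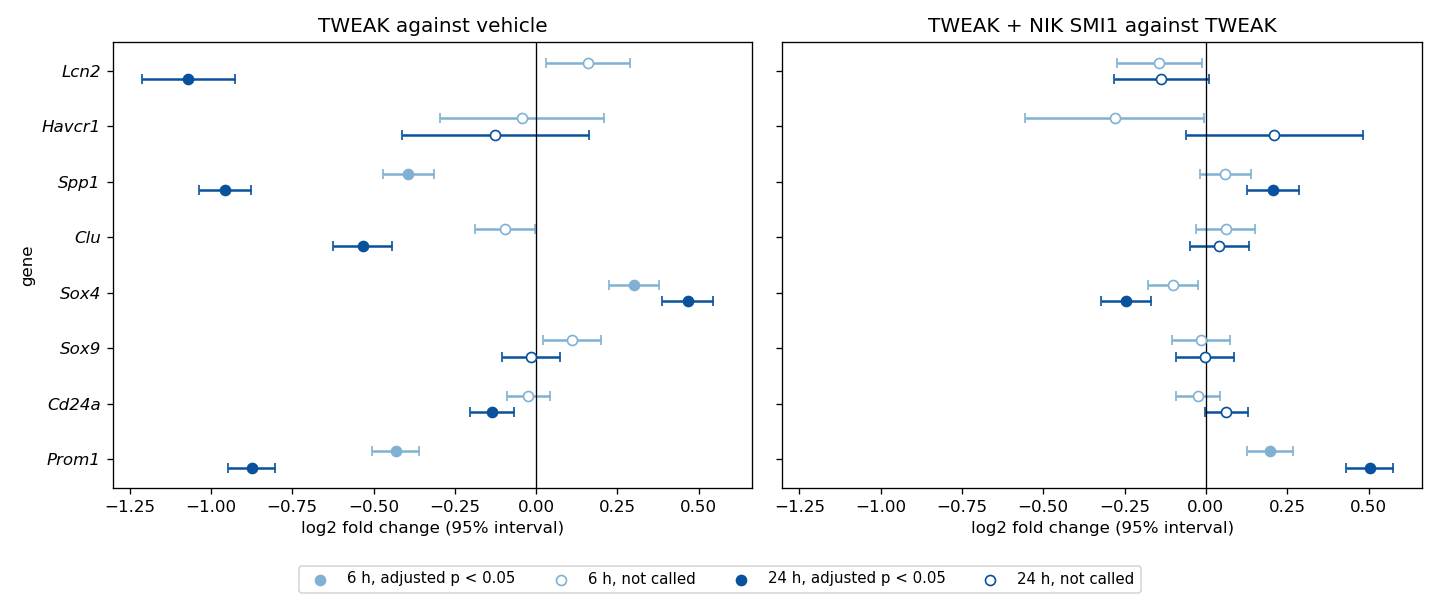
Log2 fold changes of the 8 markers with 95% intervals, for TWEAK against vehicle (left) and TWEAK with NIK SMI1 against TWEAK (right), at 6 h (light) and 24 h (dark), filled where the adjusted p was below 0.05. With TWEAK the 24 h values reach from -1.07 (Lcn2) to 0.47 (Sox4), and with NIK SMI1 added from -0.24 (Sox4) to 0.50 (Prom1).

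The 24 h values were also taken with single TWEAK samples that differ in islet reads. With TWEAK sample 1 alone in its group, which held these reads, the log2 fold changes against vehicle were -1.11 for Lcn2, -0.95 for Spp1, -0.55 for Clu, -0.89 for Prom1, -0.15 for Cd24a and 0.50 for Sox4. With TWEAK sample 2 alone, which nearly lacked them, they were -1.13, -0.99, -0.52, -0.88, -0.16 and 0.50 in the same order. NIK SMI1 against these single samples gave 0.52 and 0.51 for Prom1, 0.20 and 0.24 for Spp1, and -0.28 and -0.28 for Sox4. The lone sample was assumed to vary like the other groups, so only the sizes are given. Islet reads were present in all vehicle samples at 24 h (19.9 to 26.4 CPM) and nearly absent in all samples with NIK SMI1 (0.158 to 0.290 CPM). These fits therefore cannot separate the source of these reads from the treatment, and its part in the marker values was not tested.

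The TWEAK response differed between the time points for 5 of the 8 markers. In a test of the difference itself, the response was lower at 24 h than at 6 h for Lcn2 (difference of log2 fold changes -1.23, SE 0.09, adjusted p = 4.20e-10), Spp1 (-0.56, SE 0.05, adjusted p = 2.82e-08), Prom1 (-0.44, SE 0.05, adjusted p = 3.97e-07) and Clu (-0.44, SE 0.06, adjusted p = 1.97e-05). It was higher for Sox4 (0.17, SE 0.05, adjusted p = 0.0488), a call that was lost in 12 of the 18 fits that left out 1 sample (adjusted p from 0.0198 to 0.157). Over all genes 3.24% were called higher and 5.67% lower in this test. For Sox9 (-0.13, SE 0.06, adjusted p = 0.235), Cd24a (-0.11, SE 0.05, adjusted p = 0.145) and Havcr1 (-0.08, SE 0.19, adjusted p = 0.867) no difference was called. The effect of NIK SMI1 differed between the time points for Prom1 (0.31, SE 0.05, adjusted p = 0.000456), where 3.11% of genes were called higher and 1.62% lower, and by edgeR for 0 of the other 7 (3 of them, Havcr1, Spp1 and Sox4, at an unadjusted p under 0.05, and 0 by DESeq2).

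With vehicle alone the markers also shifted between 6 h and 24 h. Lcn2 fell 2.64-fold (log2 fold change -1.40, SE 0.07, adjusted p = 3.75e-15), from 360.2 ± 14.7 to 143 ± 5.44 CPM, with no overlap. Spp1 (-0.31), Sox4 (-0.27), Clu (-0.23) and Sox9 (-0.21) fell by less, and Prom1 rose 1.39-fold (0.48, SE 0.03, adjusted p = 2.29e-11). Havcr1 also passed the test (-0.38, SE 0.13, adjusted p = 0.0305), although its samples overlapped, and the call was lost without vehicle sample 1 or 3 at 6 h or vehicle sample 1 or 2 at 24 h (adjusted p up to 0.168). That made 6 markers lower and 1 higher, where 14.4% of all genes were called lower and 15.5% higher. Cd24a was not called (-0.06, adjusted p = 0.221), and its sign turned to 0.011 without TMM scaling. Of all called genes 51.9% were higher at 24 h (2407 higher and 2233 lower), and without TMM scaling 74.7% were (3710 and 1260), so small shifts in this comparison depend on the scaling, whereas Lcn2, Spp1, Sox4, Clu, Sox9 and Prom1 kept their call and direction without it and Havcr1 lost its call. The TWEAK difference at 24 h in Prom1 was read against a vehicle level that had risen, and that in Lcn2 against one that had fallen.

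Beside the 8 markers, 43 other genes linked to tubular injury were listed and 38 tested. TWEAK raised 15 and lowered 13 at 6 h, and raised 17 and lowered 13 at 24 h, where 11.7% of all genes were called higher and 12% lower at 6 h and 18.3% and 20.7% at 24 h. The list had median log2 fold changes of 0.05 and -0.01 against -0.0034 and -0.0055 over all genes. Vcam1, a leukocyte adhesion molecule, Ccl2 and Pdgfb had the largest changes with TWEAK at both times. Vcam1 rose 18.5-fold at 6 h and 23.3-fold at 24 h, from 4.07 ± 0.156 to 75.1 ± 5.10 CPM and from 5.98 ± 0.506 to 142 ± 2.83 CPM. Ccl2, a monocyte chemokine, had log2 fold changes of 3.37 (adjusted p = 7.57e-08) and 3.61 (adjusted p = 1.22e-07), and Pdgfb, a growth factor for mesenchymal cells, of 1.61 and 1.88. Ccl2 was scarce, with 3 to 6 reads per vehicle sample at 6 h and 2 to 4 at 24 h (mean 0.11 CPM at each time). It reached 1.13 and 1.24 CPM with TWEAK, so the size of its change is uncertain (SE 0.38 and 0.43). Complement C3, which was among the 3 largest changes with NIK SMI1, rose with TWEAK by 0.99 and 1.10 on the log2 scale. Each of these was lower with NIK SMI1 than with TWEAK alone, with log2 fold changes at 6 h and 24 h of -2.63 and -2.82 for Vcam1, -0.89 and -1.68 for C3, -1.03 and -1.97 for Ccl2, and -0.32 and -0.61 for Pdgfb. The list as a whole had 12 genes higher and 9 lower with NIK SMI1 against TWEAK at 6 h and 10 higher and 14 lower at 24 h, beside 5.34% and 5.7% of all genes at 6 h and 10.2% and 8.29% at 24 h. In the plot of the injury genes at 24 h, the 8 markers lay within the range of the other genes, with Lcn2, Spp1 and Prom1 near its lower end.

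**Figure D4:**
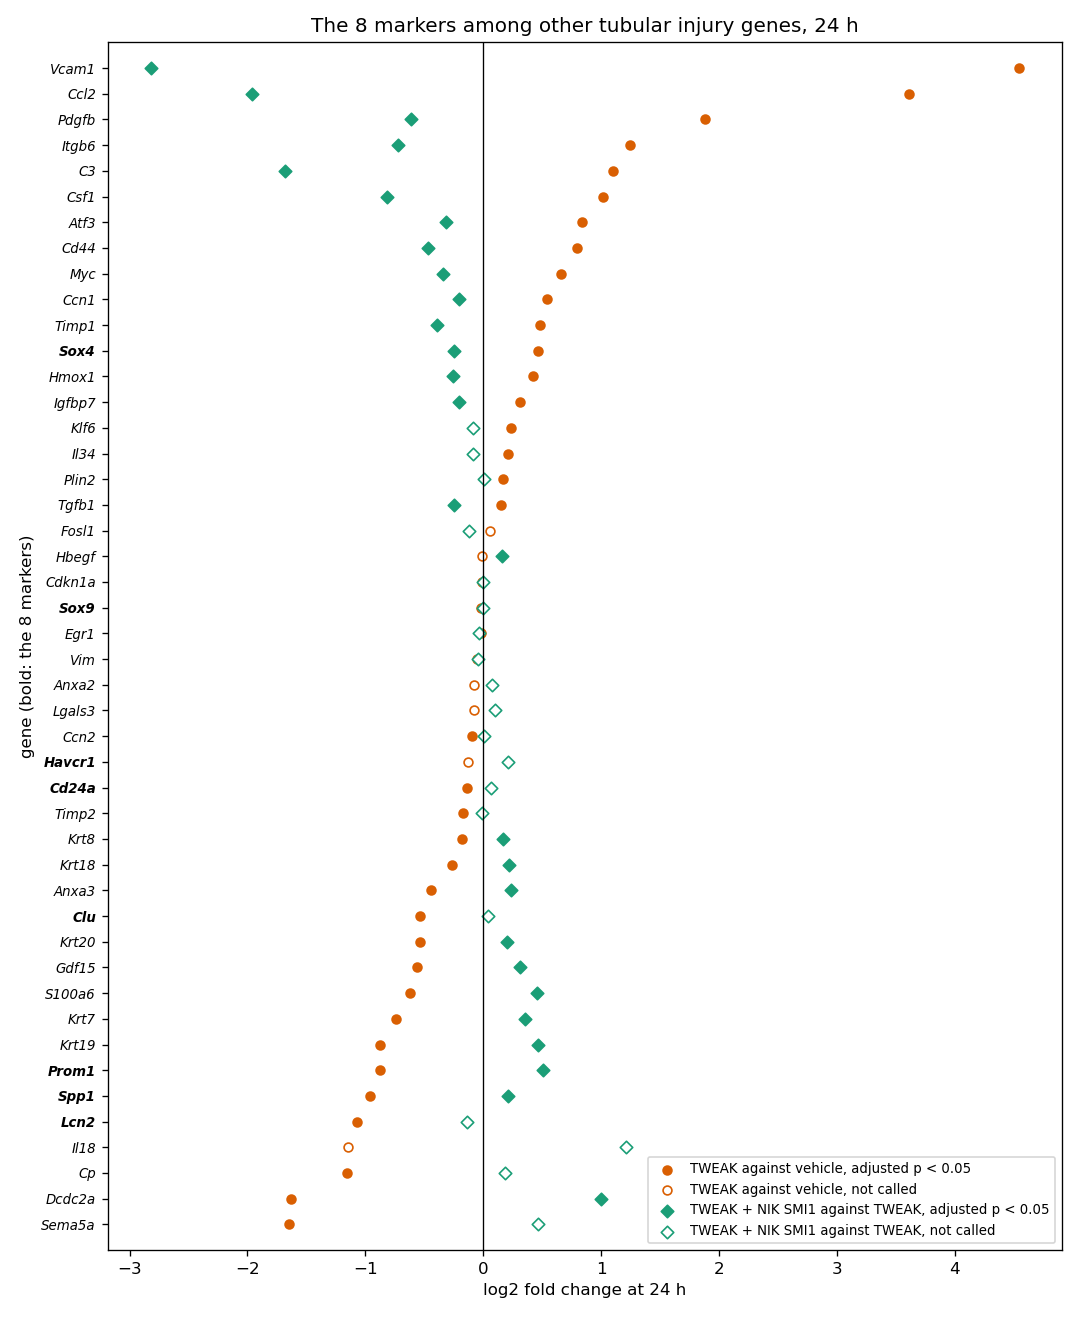
Log2 fold changes at 24 h of the 8 markers (bold) and 38 other tubular injury genes, ordered by the change with TWEAK against vehicle (circles) and shown with the change of TWEAK with NIK SMI1 against TWEAK (diamonds), filled where the adjusted p was below 0.05. Vcam1 at the top changed by 4.54 and -2.82, while Prom1 (-0.87 and 0.50), Spp1 (-0.96 and 0.21) and Lcn2 (-1.07 and -0.14) lie near the bottom.

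Partners that the marker proteins bind, or that are their close relatives, moved unevenly. Of 19 listed, 14 were tested, and TWEAK raised 4 and lowered 4 at 6 h, and raised 5 and lowered 6 at 24 h. Over all genes 11.7% were called higher and 12% lower at 6 h, and 18.3% and 20.7% at 24 h. The osteopontin receptors Cd44 (log2 fold change 0.69 at 6 h and 0.80 at 24 h), Itgav (0.63 and 0.70) and Itga5 (0.34 and 0.72) rose, as did Vldlr (0.98 and 0.79), a lipoprotein receptor, and all 4 were lower with NIK SMI1 at both times, Cd44 by log2 fold changes of -0.48 and -0.47. Of the other osteopontin integrins, named here after their values were seen, Itgb1 fell with TWEAK (-0.13, adjusted p = 0.00363, and -0.18, adjusted p = 6.36e-05), as did Itgb5 at 24 h (-0.31, adjusted p = 2.55e-05), while Itgb5 at 6 h (-0.14, adjusted p = 0.0511) and Itgb3 at either time (-0.48, adjusted p = 0.0824, and -0.33, adjusted p = 0.297) were not called. Itgb1 was the most abundant of these receptors, at 2840.0 CPM with vehicle at 24 h. Prom2, the paralogue of Prom1, changed in the same direction as Prom1 with TWEAK (-0.34, adjusted p = 0.0216, at 6 h and -2.01, adjusted p = 1.69e-13, at 24 h) and was higher with NIK SMI1 at 24 h (0.84, adjusted p = 1.63e-05). Prom2 was scarce, with vehicle at 9.88 ± 0.540 CPM, TWEAK at 2.42 ± 0.145 CPM and the inhibitor group at 4.36 ± 0.426 CPM at 24 h. Siglecg, a lectin that binds CD24, fell (-1.08, adjusted p = 4.94e-06, and -0.49, adjusted p = 0.0155). With NIK SMI1 against TWEAK 1 partner was higher and 4 were lower at 6 h, and 3 were higher and 4 lower at 24 h. The shares over all genes were 5.34% higher and 5.7% lower at 6 h, and 10.2% and 8.29% at 24 h.

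Within the Sox family, 8 of 12 other genes were tested. TWEAK raised 2 and lowered 2 at 6 h, and raised 2 and lowered 3 at 24 h. These counts stand beside 11.7% of all genes called higher and 12% lower at 6 h, and 18.3% and 20.7% at 24 h. Sox11, which forms the SoxC group with Sox4, rose by 0.71 (adjusted p = 7.79e-13) and 0.48 (adjusted p = 1.23e-09), from 137 ± 3.56 to 222 ± 5.40 CPM at 6 h, while Sox13 fell by 0.22 (adjusted p = 8.37e-05) and 0.39 (adjusted p = 8.94e-09). With NIK SMI1, Sox11 was lower at 6 h (-0.19, adjusted p = 0.00508) and was not called at 24 h (0.08, adjusted p = 0.274). Sox4 was lower at 24 h and was not called at 6 h in the main fit, though it was called there in some of the other fits. The time difference of the NIK SMI1 effect was itself called for Sox11 (0.26, adjusted p = 0.0137) and not for Sox4 (-0.14, adjusted p = 0.126). Over the family NIK SMI1 had 1 gene higher and 3 lower at 6 h, and 1 higher and 1 lower at 24 h. Among all genes 5.34% were higher and 5.7% lower at 6 h, and 10.2% and 8.29% at 24 h.

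Genes of the NF-κB pathways and other regulators upstream of the markers were called higher with TWEAK more often than lower. Of 21 tested, TWEAK raised 12 and lowered 5 at 6 h, and raised 12 and lowered 4 at 24 h (median log2 fold change 0.29 and 0.42), beside the 11.7% and 12% of all genes called higher and lower at 6 h and the 18.3% and 20.7% at 24 h. Nfkbia, the inhibitor of canonical NF-κB, rose 5.90-fold and 6.84-fold, Birc3, which keeps NIK low, 5.57-fold and 7.12-fold, and Nfkb2, the precursor of the p52 subunit, 3.74-fold and 3.65-fold. NIK SMI1 lowered 9 and raised 3 of the 21 at 6 h, and lowered 10 and raised 2 at 24 h, where the shares over all genes were 5.7% lower and 5.34% higher at 6 h and 8.29% and 10.2% at 24 h. The log2 fold changes at 6 h and 24 h were -1.14 and -1.49 for Nfkbia, -0.82 and -1.22 for Birc3, -0.48 and -0.66 for Birc2, and -0.39 and -0.55 for Nfkb2. Among the 8 markers the values with NIK SMI1 reached from -0.28 to 0.20 at 6 h and from -0.24 to 0.50 at 24 h.

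Of the 22 genes of the mature proximal tubule, 10 were tested. TWEAK raised 2 and lowered 2 at 6 h, and raised 2 and lowered 4 at 24 h. Over all genes 11.7% were called higher and 12% lower at 6 h, and 18.3% and 20.7% at 24 h. Cubn, a receptor for filtered protein, fell by 0.57 (adjusted p = 0.0044) and 0.51 (adjusted p = 0.00528), and Pax8, a renal transcription factor, by 0.43 (adjusted p = 4.49e-08) and 0.32 (adjusted p = 3.72e-06). Mme (neprilysin) fell by 0.57 at 24 h (adjusted p = 0.000219). With NIK SMI1 the only call at 6 h was Pax8, which was higher (0.28, adjusted p = 0.000224), and at 24 h 2 were higher (Pax8, 0.31, and Mme, 0.61) and 1 was lower. The shares over all genes were 5.34% higher and 5.7% lower at 6 h, and 10.2% and 8.29% at 24 h. The level of most of the mature proximal tubule genes was low, 3.15 ± 0.418 CPM for Cubn with vehicle at 6 h.

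The genes whose levels ran most like each marker were found by Pearson's r of log2 CPM over the 18 samples, among 9656 tested genes with a mean of at least 10 CPM. The points share treatment and time groups, so these are descriptions only. For Lcn2 they were Gsto1 (r = 0.994), Il1rn (0.987) and Gsta3 (0.986). Spp1 ran with Golm1 (0.985), Clca3b (0.984) and Vtcn1 (0.981), and Clu with Clca3b (0.983), Gstm1 (0.98) and Gpx3 (0.975), so Clca3b stood near both. Prom1 ran with Ccnd2 (0.991), Pdxk (0.987) and Peg3 (0.983), and Sox4 with Pcdh7 (0.983), Mex3a (0.98) and Abtb2 (0.976). The likeness was lower for Sox9 (Egr1, 0.950, Bicd2, 0.949, and Bcar3, 0.947) and Cd24a (Aig1, 0.944, a gene without a symbol, 0.935, and Asah1, 0.930), and lowest for Havcr1 (Rbm18, 0.835, Mob1a, 0.817, and Atf2, 0.812).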

How the data were processed

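RNASeq was performed on 18 samples of primary murine RPTEC in 6 groups of 3. The authors used GSNAP (HTSeqGenie) and NCBI build 37, and deposited counts of uniquely aligned exonic reads per gene, not normalized. In the same files the authors gave RPKM, scaled by exonic length and by 1.03 to 1.05 times the counted reads. The labels and the methods differ on sequencer and read length. Symbols were matched by Entrez identifier to RefSeq GRCm38.p6 (31049 of 36528 genes), positions come from GENCODE M21, GRCm38, and no position was converted.

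Genes with more than 10 reads in at least 4 samples were tested. The 6 groups of 18 samples entered 1 fit in edgeR 4.0.16 under R 4.3.3 (TMM, factors 0.964 to 1.03, glmQLFit, glmQLFTest), with Benjamini-Hochberg adjustment and calls at 0.05. Standard errors follow from the F statistic, and intervals are 95%. With 3 against 3 samples the spread is borrowed across genes. Levels are CPM of total counts, as mean and SD. RPKM entered no test. Each time difference of a response was tested as an interaction contrast.

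The 8 markers and all gene lists were chosen with earlier results of these data known. Named genes were all markers, and from each list up to 3 called genes of largest change whose samples did not overlap and whose higher mean reached 1 CPM, besides the 3 genes most like each marker. Some genes counted in the lists are not reported here by name. Motifs other than the NF-κB consensus were added after seeing the data. Promoter sequence was printed for Spp1 and Sox4, where at least 200 bases before the gene's first start were free of annotated exons. Windows of Prom1 and Havcr1 that met this minimum lay at starts inside the gene and were not printed. The scripts were tested on simulated counts with 200 genes changed by 1.5-fold or 2-fold with TWEAK at 6 h. All of these were called by edgeR, and 10 of 15209 unchanged genes were called. The changed genes had means above 200 reads, and the spread was the same for all genes. Smaller changes, as in most of the markers, and scarcer genes were therefore not tried. Alternatives were DESeq2 1.42.0, its size factors, total counts, other filters, single time points, unadjusted p, the fold cut-offs of 2 and 1.5, leaving out each sample and, added after seeing the data, single TWEAK samples at 24 h.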

Additional observations from a re-analysis of the deposited data

Results flagged for a closer look

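The TWEAK response of 5 markers differed between 6 h and 24 h by edgeR's interaction test. The difference of log2 fold changes, 24 h minus 6 h, was -1.23 for Lcn2, -0.56 for Spp1, -0.44 for Clu, -0.44 for Prom1 and 0.17 for Sox4. For Lcn2 the 2 responses had opposite signs, 0.16 at 6 h, which was not called, and -1.07 at 24 h. The Sox4 difference was lost in 12 of the 18 fits without 1 sample. The effect of NIK SMI1 on Prom1 differed between the times by 0.31, from 0.20 at 6 h to 0.50 at 24 h.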

How the results depend on the processing

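No paired analysis was possible because the labels number no replicates across groups. DESeq2, its size factors in edgeR and filterByExpr changed no count of called markers by more than 1.5 times. The values below left the main count, and the cause of each was not tested. For TWEAK against vehicle at 6 h, markers called higher numbered 3 with no filter, 2 with each time point fitted alone, 3 at an unadjusted p under 0.05 and 1 to 3 without 1 sample. In that comparison Clu was also called lower with no filter and without sample 1 with NIK SMI1 at 24 h. For NIK SMI1 against TWEAK, markers called lower numbered 2 with no filter, 1 with each time point alone, 3 unadjusted and 0 to 1 without 1 sample at 6 h, and 2 with no filter and 1 to 2 without 1 sample at 24 h. At 6 h unadjusted p gave 2 markers higher with TWEAK and NIK SMI1 than with vehicle. The higher TWEAK response at 24 h (Sox4) gave 0 markers with TWEAK sample 1 or sample 2 alone and 0 to 1 without 1 sample. For the NIK SMI1 effect at 24 h minus 6 h, markers called higher numbered 2 with no filter and 3 unadjusted, and 1 was lower unadjusted. With the study's fold cut-offs applied in both directions, 1 marker was lower with TWEAK at 24 h and 0 passed in each other direction and comparison named above.

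Sign changes were limited to values near 0 that no fit called. With TWEAK sample 1 alone, Sox9 gave 0.038 with TWEAK at 24 h and -0.039 for the NIK SMI1 time difference, Havcr1 0.00077 for the TWEAK time difference, and Clu 0.00077 for that of NIK SMI1. Sox9 with NIK SMI1 at 24 h gave 0.0011 without TMM and 0.0010 with no filter, and Cd24a between the vehicle times 0.011 without TMM. Without 1 sample, TWEAK against vehicle ranged from -0.13 to 0.031 for Havcr1 at 6 h and from -0.044 to 0.017 for Sox9 at 24 h. NIK SMI1 against TWEAK ranged from -0.062 to 0.028 for Sox9 at 6 h, and at 24 h from -0.036 to 0.082 for Clu and from -0.036 to 0.041 for Sox9. TWEAK with NIK SMI1 against vehicle ranged from -0.025 to 0.052 for Lcn2 and from -0.064 to 0.0076 for Clu at 6 h, and from -0.033 to 0.17 for Havcr1 and from -0.050 to 0.025 for Sox9 at 24 h. The TWEAK time difference of Havcr1 ranged from -0.20 to 0.0081, and the NIK SMI1 time difference from -0.15 to 0.082 for Lcn2, from -0.097 to 0.021 for Clu and from -0.031 to 0.059 for Sox9.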
